A study of Rattus norvegicus with 9 samples.

Results

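The genes described here encode receptors and killing proteins of natural killer (NK) cells, read from RNA of rat spleen. The set was fixed by name as the killer cell lectin-like receptor genes (Klra to Klrk with a number, and Ly49), the granzymes (Gzm), and Prf1, Nkg7, Ncr1, Ncr3, Eomes, Tbx21 and Ifng. Such a name was carried by 44 rows of the authors' count table, and the 39 with at least 10 counts over the 9 libraries, of 34408 genes in all, were kept. Of the 5 rows under that minimum, Gzmf had 9 counts, Gzmbl1 6 and Ly49i7 4, and both Gzmn rows had 0. The 39 genes comprised 8 receptors of the CD94 and NKG2 family, 3 NKR-P1 receptors, 12 Ly49 receptors, 2 Klrg receptors, 2 natural cytotoxicity receptors, 9 granzymes and granule proteins, 2 transcription factors and interferon gamma. The CD94 and NKG2 family is a grouping used here for Klrd1, Klrk1, Klrc1, Klrc2, Klre1, Klrh1, Klri1 and Klri2, which do not all pair with CD94.

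NK cells sense target cells through germline-encoded receptors, many of which are C-type lectins of the natural killer gene complex that either dampen or trigger killing on meeting MHC class I or related ligands. Triggering releases granules in which perforin opens the target membrane and granzymes act as proteases inside the target. Cytotoxic T cells use the same granule proteins and some of the same receptors, so in spleen RNA these transcripts have more than 1 cellular source.

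The study profiled spleens of rats given the genotype label WT, with 3 libraries in each of 3 groups. Control rats carry no treatment beyond that word in their label. TAA rats were injected intraperitoneally every 3 days with thioacetamide (TAA), a liver toxin used to produce cirrhosis, at 200 mg/kg over the first 8 weeks and at 100 mg/kg over the following 8. TAA+celecoxib rats had the same injections and also received celecoxib, an inhibitor of cyclooxygenase 2, at 20 mg/kg per day through the final 8 weeks. All TAA+celecoxib rats therefore carried TAA exposure as well, and strain, sex and age are not given in the labels. The labels do not say whether each library came from a separate animal, so p-values measure the spread between these libraries, which may be partly technical. Because the RNA of many cells was read together, fewer cells of a type and less RNA per cell cannot be told apart.

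Library totals ran from 14211789 to 19014761 counts, and the 39 genes held 0.0444% to 0.0752% of them. Levels per library are given as CPM, the gene's count scaled to a common library size, on TMM-scaled library sizes, a scaling that allows for differences in composition. On the first principal component of all tested genes, which held 31.3% of the variance, control 1 (-63.2) and TAA+celecoxib 1 (-60.3) stood apart from the other 7 libraries (-1.73 to 50.1). Haemoglobin transcripts took 0.840% to 5.34% of counts. The liver transcript Alb was at 89.0 CPM in control 1 and 575 CPM in TAA 1 and at most 0.701 CPM elsewhere. The labels name splenocytes, and macrophage markers summed to 2861 to 10360 CPM and endothelial markers to 416 to 1272 CPM. Ncr1, a defining NK marker, was detected in every library. Whether the RNA came from whole spleen or from isolated splenocytes was not tested.

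Of the 39 genes, 25 lie on chromosome 4, which holds the natural killer gene complex, and 4 granzyme genes lie on chromosome 15. In the deposited coordinates, Klrd1 spans chr4:163358009-163369854 on the plus strand and its neighbour Klrk1 spans chr4:163393217-163403653 on the minus strand. Gzmm spans chr7:12893432-12899004 on the minus strand and Prf1 spans chr20:30915213-30921382 on the plus strand. The build of these coordinates is unresolved, because the submitters' processing notes name mRatBN7.2 but the table reaches position 282724300 on chromosome 1, past the end of that chromosome in mRatBN7.2.

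RefSeq promoters (GRCr8 build, 250 bases before to 50 after each gene's start) matched 33 of the 39 genes. The names not matched were Klrd1, Ncr1, Gzmbl2, Klrg1, Klrg2 and Ly49s4. A pair of letter patterns was searched on both strands. The core bound by RUNX factors is TGTGGT, which on the opposite strand reads ACCACA. The core bound by T-box factors such as T-bet and Eomesodermin is TCACAC, which on the opposite strand reads GTGTGA. The matches of the 2 patterns share no base in the promoters printed here. The RUNX letters were in 15 of the 33 promoters (45.5%) and in 17.3% of the 33469 promoters of the reference. The T-box letters were in 6 of 33 (18.2%) and in 13.7% of the reference. A match describes the letters only, and members of 1 gene family share ancestry.

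The 5 promoters below are shown because their genes span the receptor and granule levels that the results turn on, with the matched letters in capitals. Klrk1 (chr4:164778333-164778632, minus strand) had T-box letters at position -154 and RUNX letters at -124 from the start, and Klrc2 (chr4:164819816-164820115, minus strand) had RUNX letters at -22. Gzmm (chr7:10667207-10667506, minus strand) had RUNX letters at -94 and T-box letters at -81, and Nkg7 (chr1:102981247-102981546, plus strand) had them at -106 and -51. Prf1 (chr20:29788790-29789089, plus strand) had RUNX letters at -134.
Klrk1: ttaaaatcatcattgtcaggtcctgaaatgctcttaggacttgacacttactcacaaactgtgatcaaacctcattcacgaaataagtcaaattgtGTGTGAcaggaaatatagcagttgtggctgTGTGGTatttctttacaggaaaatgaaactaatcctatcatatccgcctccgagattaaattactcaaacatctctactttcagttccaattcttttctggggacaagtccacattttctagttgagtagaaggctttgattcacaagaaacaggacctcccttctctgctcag
Klrc2: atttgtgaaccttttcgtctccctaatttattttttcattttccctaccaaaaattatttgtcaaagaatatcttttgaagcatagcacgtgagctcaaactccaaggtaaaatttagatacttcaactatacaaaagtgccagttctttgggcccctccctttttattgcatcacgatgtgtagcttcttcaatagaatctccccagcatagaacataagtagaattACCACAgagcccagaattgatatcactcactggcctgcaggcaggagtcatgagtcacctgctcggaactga
Gzmm: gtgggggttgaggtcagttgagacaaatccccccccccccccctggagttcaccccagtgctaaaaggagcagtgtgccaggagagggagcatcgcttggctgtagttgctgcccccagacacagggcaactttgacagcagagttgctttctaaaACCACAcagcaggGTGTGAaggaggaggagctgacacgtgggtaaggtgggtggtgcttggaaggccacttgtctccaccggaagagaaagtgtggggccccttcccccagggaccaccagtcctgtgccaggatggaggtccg
Nkg7: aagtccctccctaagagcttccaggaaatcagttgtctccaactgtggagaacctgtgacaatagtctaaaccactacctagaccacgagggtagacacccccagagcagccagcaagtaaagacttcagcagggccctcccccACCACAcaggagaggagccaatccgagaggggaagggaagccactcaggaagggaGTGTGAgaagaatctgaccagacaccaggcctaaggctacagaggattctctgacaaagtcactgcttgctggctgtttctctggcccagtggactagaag
Prf1: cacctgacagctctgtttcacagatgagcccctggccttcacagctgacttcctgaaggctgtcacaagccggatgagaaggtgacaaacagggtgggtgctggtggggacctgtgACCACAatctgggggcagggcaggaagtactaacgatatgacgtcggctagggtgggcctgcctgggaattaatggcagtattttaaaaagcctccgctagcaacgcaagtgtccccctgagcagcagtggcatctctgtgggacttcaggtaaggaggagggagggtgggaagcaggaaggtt

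Of 528 pairs of these promoters, whose median identity was 47.1%, 1 pair reached 90% identity. Identity here counts gaps. Ly49i2 and Ly49i4 matched at 168 aligned bases and mismatched at 12, but with 240 gap positions. The ungapped pair is shown because such closeness between family members raises the question of shared reads, and transcripts were not compared, so whether their counts share reads was not tested. The promoters of Ly49si2 (chr4:165397220-165397519, minus strand) and Ly49si3 (chr4:165188046-165188345, minus strand) differ at 3 bases, in capitals.
Ly49si2: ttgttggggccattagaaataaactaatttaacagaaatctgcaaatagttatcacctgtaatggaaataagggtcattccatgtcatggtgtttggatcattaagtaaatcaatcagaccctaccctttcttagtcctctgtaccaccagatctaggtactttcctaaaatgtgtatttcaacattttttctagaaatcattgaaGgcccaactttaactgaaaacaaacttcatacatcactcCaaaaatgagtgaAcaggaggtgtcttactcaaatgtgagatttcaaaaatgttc
Ly49si3: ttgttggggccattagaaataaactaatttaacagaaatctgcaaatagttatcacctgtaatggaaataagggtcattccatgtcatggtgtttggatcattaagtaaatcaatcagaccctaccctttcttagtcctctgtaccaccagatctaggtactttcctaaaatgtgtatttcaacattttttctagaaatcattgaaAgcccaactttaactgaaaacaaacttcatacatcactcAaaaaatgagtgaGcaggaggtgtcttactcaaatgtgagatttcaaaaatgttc

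Among the granule genes, perforin, Nkg7 and granzyme M were abundant in every library. Per length, in the deposited FPKM (counts scaled by gene length and library), the mean over the 9 libraries was 76.7 for Gzmm, 73.4 for Klrk1, 55.5 for Nkg7, 43.7 for Gzmk and 36.7 for Prf1. Gzma (12.8), Tbx21 (12.5), Klrd1 (11.4) and Klra2 (9.43) came next, and Gzmb (0.483) and Gzmc (0.0833) were among the lowest. From Gzmm to Klra2 in that order, the larger SD over libraries of each neighbouring pair exceeded the gap between them, except for Prf1 and Gzma.

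TAA against control addresses how these genes differ in the spleens of TAA-injected rats. Klrd1 and Gzmm were lower in every TAA library than in every control library. The other 6 tested receptors of the CD94 and NKG2 family, Eomes and Tbx21 had lower means in TAA with overlapping values, and Prf1 and Nkg7 overlapped with fitted log2 fold changes of 0.01 and -0.03. No member passed the threshold of edgeR's quasi-likelihood test, a Benjamini-Hochberg adjusted p under 0.05 over all genes tested: 0 of the 35 tested members were called, and 0% of the 15954 genes. At an unadjusted p under 0.05 edgeR gave 6 members lower (Klrd1, Gzmm, Klrc2, Eomes, Tbx21 and Klre1), where the background over all genes was 3.15%, and 0 higher, where it was 2.85%. DESeq2 called 1 member (Klrd1) among 53 genes and limma-voom called 0. Values of the groups did not overlap for 3 of 35 members that were lower in TAA (Klrd1, Gzmm and Klra22, background 7.89%). They did not overlap for 0 that were higher (background 6.94%). The count lower is near the background and the count higher is below it. The fitted log2 fold change was below 0 for 25 of 35 members (71.4%) and for 49.8% of all genes, with medians of -0.34 and 0.0017. The members' median was -0.20 without TAA 1 and -0.54 without TAA 3.

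TAA+celecoxib against TAA addresses what adding celecoxib to TAA goes with. It shares the TAA libraries with the first comparison, which by itself favours opposite signs in the 2. Klrd1 and Klrk1 were higher in every TAA+celecoxib library than in every TAA library, and Gzmbl3 was lower. By edgeR 0 of 35 members were called (0% of all genes), DESeq2 called 0 of the members among 25 genes, and limma-voom called 0. At an unadjusted p under 0.05, 1 member was lower (Gzmbl3; background 2.46%) and 2 were higher (Klrd1 and Klrk1; background 2.63%). Groups did not overlap for 2 of 35 members lower (Gzmbl3 and Ly49si3, background 5.03%) and 2 higher (background 5.87%). Both counts are near the background. The median log2 fold change was 0.18 over the members and 0.0071 over all genes, but the members' median was 0.0025 without TAA+celecoxib 2, 0.056 without TAA+celecoxib 3, 0.090 without TAA 1 and 0.39 without TAA 3.

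TAA+celecoxib against control addresses how far the doubly treated spleens lay from control. Gzmm and Klrd1 were lower in every TAA+celecoxib library than in every control library, and these were the 2 members with an unadjusted edgeR p under 0.05 (background 2.07% lower); 0 were higher (background 2.96%). No member was called by edgeR (0% of all genes), by DESeq2 (27 genes in all) or by limma-voom. Groups did not overlap for those 2 of 35 members lower (background 4.42%) and for 0 higher (background 5.27%). The count lower is near the background and the count higher is below it. Fitted values were below 0 for 25 of 35 members (71.4%) and for 49.8% of all genes, the same shares as in TAA against control. The median log2 fold change was -0.30 over the members and 0.0012 over all genes, and the members' median was -0.19 without control 3. The plot of fold changes by gene sets the first 2 comparisons side by side.

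**Figure D1:**
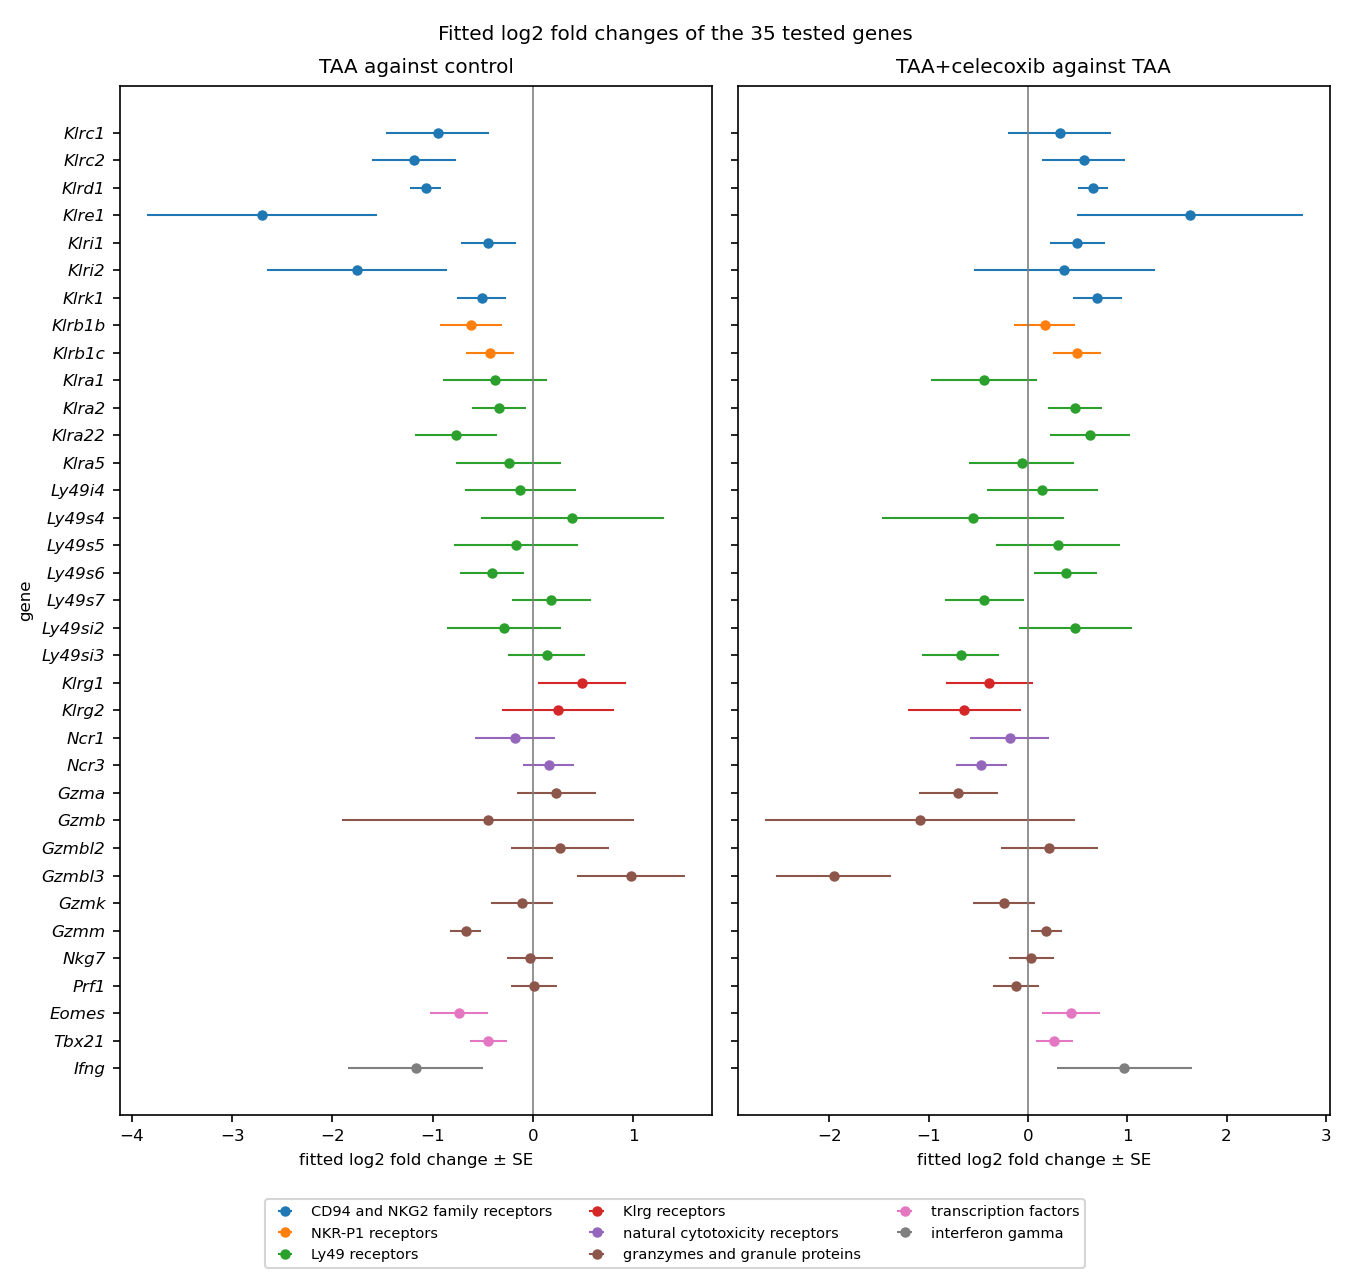
Fitted log2 fold change (x axis) with its standard error for the 35 tested genes (y axis, by role) in TAA against control and in TAA+celecoxib against TAA, which share the TAA libraries. All 7 tested genes grouped as the CD94 and NKG2 family lie below 0 in the first and above 0 in the second. The shared libraries by themselves favour opposite signs. Over all genes 49.8% and 48.8% lie below 0. No gene passed edgeR's adjusted threshold in either.

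Klrd1 encodes CD94, the invariant chain that pairs with NKG2 proteins to bind MHC class Ib molecules. Its levels were 23.1, 25.9 and 32.0 CPM in control, 12.9, 11.9 and 13.7 CPM in TAA, and with celecoxib added 19.1, 21.3 and 20.3 CPM. The TAA libraries were the lowest 3 of the 9, the TAA+celecoxib libraries lay between, and no pair of groups overlapped. The log2 fold change of TAA against control was -1.07 ± 0.155 (SE; edgeR adjusted p = 0.325, n = 3 per group), and DESeq2's adjusted p was 1.17e-05. Of TAA+celecoxib against TAA it was 0.66 ± 0.155 (edgeR adjusted p = 0.89), and against control -0.41 ± 0.153 (edgeR adjusted p = 0.911). Without control 1 and TAA+celecoxib 1 the value in TAA against control was -1.18.

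Klrk1 encodes NKG2D, an activating receptor for stress-induced ligands that NK cells and CD8+ T cells both carry. By FPKM it was the highest of the receptor genes, and its CPM was 145, 109 and 74.4 in control, 77.7, 69.0 and 83.5 in TAA and 153, 100 and 120 in TAA+celecoxib. All 3 TAA+celecoxib values exceeded all 3 TAA values, while TAA and control overlapped because control 3 was as low as the TAA libraries. The log2 fold change was -0.51 ± 0.242 in TAA against control (edgeR adjusted p = 0.788) and 0.70 ± 0.243 in TAA+celecoxib against TAA (edgeR adjusted p = 0.89). Without the 2 libraries that stood apart they were -0.27 and 0.53, so the first moved by over 1.5 times.

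The NKG2 chains that partner CD94 are Klrc1, which carries an inhibitory motif, and Klrc2, which activates through an adaptor. Klrc2 was at 9.31, 15.4 and 21.1 CPM in control, 4.33, 5.62 and 10.1 in TAA and 6.96, 14.0 and 8.80 in TAA+celecoxib. Control 1 lay below TAA 3, so the groups overlapped, and the log2 fold change of TAA against control was -1.18 ± 0.42 (edgeR adjusted p = 0.788). Klrc1 was low, at 1.29, 1.72 and 3.24 CPM in control, 0.639, 1.16 and 1.41 in TAA and 0.696, 1.89 and 1.47 in TAA+celecoxib.

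Klre1 and its partners Klri1 and Klri2 form receptors known from rodent NK cells. Klre1 was at 0.678, 6.12 and 10.9 CPM in control, 0.284, 0.959 and 1.41 in TAA and 0.506, 6.73 and 1.24 in TAA+celecoxib. Control 1 and TAA+celecoxib 1, the libraries that stood apart, were also low here, and only control 2, control 3 and TAA+celecoxib 2 exceeded 2 CPM. Its log2 fold change in TAA against control was -2.70 ± 1.15 (edgeR adjusted p = 0.788), the lowest of any tested member, and -3.24 without the 2 libraries that stood apart. Klri2 was at 0.247, 3.84 and 5.58 CPM in control, 0.568, 0.616 and 1.62 in TAA and 1.08, 1.89 and 0.733 in TAA+celecoxib. Klri1 was steadier, at 9.31, 9.73 and 9.28 CPM in control, 4.90, 6.03 and 9.82 in TAA and 8.23, 12.0 and 9.19 in TAA+celecoxib, with TAA 3 above all controls. Klrh1 was not tested, with 0 to 8 counts per library.

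The 8 genes grouped as the CD94 and NKG2 family were also summed, and Klrk1 was the largest part of the sum in every library. In control 3 Klrk1 was 74.4 of 157 CPM, below its level in TAA 1 (77.7) and TAA 3 (83.5). It was 172.5 ± 16.3 CPM in control (SD, n = 3), 106.3 ± 13.9 CPM in TAA and 170.4 ± 17.1 CPM in TAA+celecoxib. The 3 TAA sums, 102, 95.3 and 122 CPM, were below the other 6, which ran from 157 to 190 CPM. Fitted values of all 7 tested genes were below 0 in TAA against control, with a median of -1.07. All were above 0 in TAA+celecoxib against TAA, with a median of 0.56. These 2 comparisons share the TAA libraries, which favours opposite signs. In TAA+celecoxib against control 5 were below and 2 above. Over all genes 49.8%, 48.8% and 49.8% were below 0 in the 3 comparisons.

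**Figure D2:**
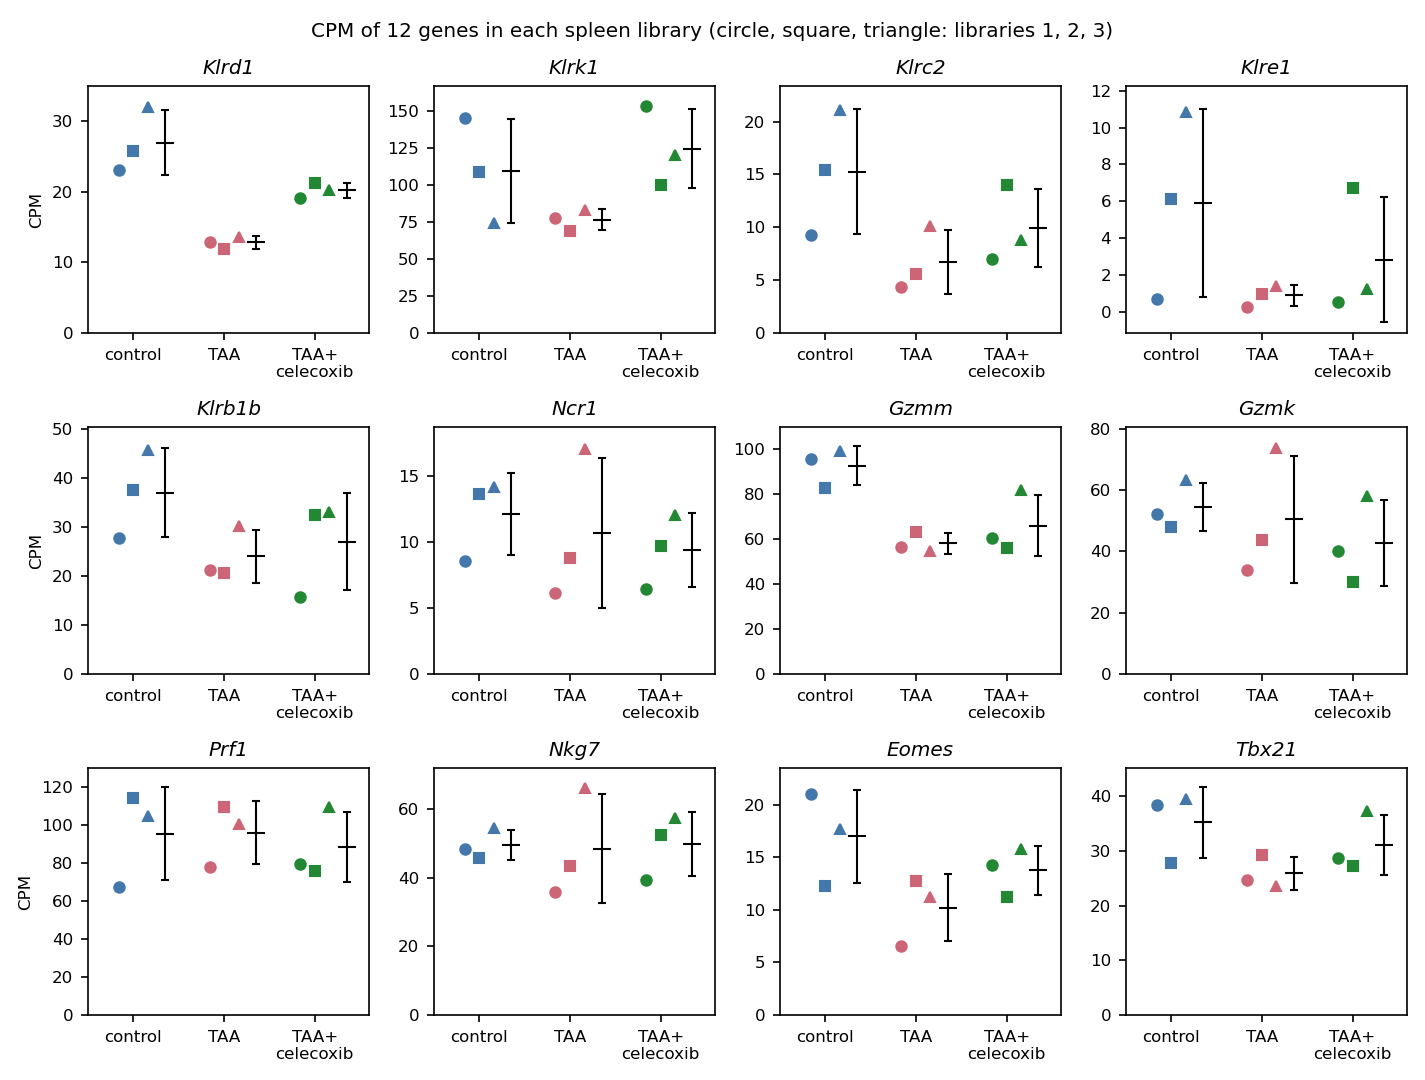
CPM (y axis) in each library for 12 of the genes by group (x axis), with points for libraries and the group mean with its SD. Klrd1 runs from 11.9 to 13.7 CPM in TAA and from 23.1 to 32.0 CPM in control, while the Prf1 points of the 3 groups overlap.

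The NKR-P1 receptors, which bind C-type lectin-related ligands, are Klrb1b, which is inhibitory, and Klrb1c, with Klrb1 too low to test at 1 to 25 counts per library. Klrb1b was at 27.7, 37.6 and 45.7 CPM in control, 21.2, 20.6 and 30.2 in TAA and 15.6, 32.5 and 33.0 in TAA+celecoxib. Klrb1c was at 12.9, 15.8 and 17.5 CPM in control, 9.02, 12.1 and 13.1 in TAA and 11.4, 17.9 and 19.0 in TAA+celecoxib. Both overlapped between groups, and their TAA against control log2 fold changes were -0.62 and -0.43.

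The Ly49 receptors are the rodent counterparts of human KIR, binding classical MHC class I, and comprise inhibitory and stimulatory forms. Of 11 tested, 8 had fitted values below 0 and 3 above in TAA against control, from -0.77 to 0.39 with a median of -0.24, and in TAA+celecoxib against TAA 5 were below and 6 above. Klra22 was at 4.87, 5.23 and 8.02 CPM in control, 3.34, 2.95 and 4.33 in TAA and 3.29, 9.05 and 4.12 in TAA+celecoxib, and its TAA libraries were all below its control libraries. Klra2, the highest of them by FPKM, was at 39.2, 38.8 and 28.3 CPM in control, 28.7, 20.1 and 35.3 in TAA and 49.1, 26.7 and 41.3 in TAA+celecoxib, with all groups overlapping. Klra1 was at 3.70, 1.001 and 1.31 CPM in control, 0.924, 2.06 and 1.62 in TAA and 1.20, 1.05 and 1.13 in TAA+celecoxib, with control 1 well above the rest. The 9 tested genes other than Klra22 and Klra2 lay between 0.0701 and 12.4 CPM. Ly49si3 was at 2.56, 3.01 and 2.82 CPM in TAA and 1.14, 1.89 and 2.20 in TAA+celecoxib, and these groups did not overlap. The annotated spans of Ly49i4 and Ly49s4, and of Ly49s7 and Klra5, overlap on 1 strand. That of Ly49s5 overlaps other annotated genes, of which LOC497796 held 2635 counts over the 9 libraries against 247 for Ly49s5. Reads could be split between the overlapping genes. Ly49i2 was not tested, with 42, 6 and 0 counts in control, 5, 0 and 13 in TAA and 9, 0 and 10 in TAA+celecoxib.

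Klrg1 and Klrg2, of which Klrg1 is an inhibitory receptor of mature NK and effector T cells, were low in every library, between 0.678 and 4.04 CPM. Both had fitted values above 0 in TAA against control, with a median of 0.37, and below 0 in TAA+celecoxib against TAA, with a median of -0.51. Of the natural cytotoxicity receptors, Ncr1, which encodes NKp46, was at 8.57, 13.7 and 14.2 CPM in control, 6.18, 8.77 and 17.1 in TAA and 6.46, 9.75 and 12.1 in TAA+celecoxib. Its groups overlapped and TAA 3 was the highest of all 9, with a log2 fold change of -0.18 ± 0.397 (edgeR adjusted p = 0.912). That value ran from -0.70 without TAA 3 to 0.090 without TAA 1, and its sign changed only under that last setting. Ncr3, which encodes NKp30, was at 8.08, 6.50 and 7.46 CPM in control, 8.17, 7.06 and 9.35 in TAA and 6.39, 7.36 and 4.003 in TAA+celecoxib. The groups overlapped, with TAA+celecoxib 3 the lowest, and the log2 fold change was 0.16 in TAA against control and -0.47 in TAA+celecoxib against TAA.

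The granule genes did not share 1 direction. Prf1, perforin, was at 67.6, 114 and 105 CPM in control, 77.8, 110 and 101 in TAA and 79.3, 76.0 and 110 in TAA+celecoxib, and the log2 fold change of TAA against control was 0.01 ± 0.23 (edgeR adjusted p = 0.995). Nkg7, a granule membrane protein needed for their release, was at 48.5, 45.8 and 54.5 CPM in control, 36.0, 43.4 and 66.3 in TAA and 39.4, 52.5 and 57.5 in TAA+celecoxib, with a log2 fold change of -0.03 ± 0.231 (edgeR adjusted p = 0.977). For both genes the groups overlapped throughout.

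Gzmm encodes a granzyme found mainly in NK and other innate lymphocytes. It was at 95.8, 82.9 and 99.2 CPM in control, 56.3, 63.4 and 54.8 in TAA and 60.6, 55.9 and 81.7 in TAA+celecoxib. All 3 controls exceeded all 6 TAA-exposed libraries, although TAA+celecoxib 3 came close to control 2. The log2 fold change of TAA against control was -0.67 ± 0.157 (edgeR adjusted p = 0.788; DESeq2 adjusted p = 0.0566), and of TAA+celecoxib against control -0.49 ± 0.156 (edgeR adjusted p = 0.911). Without the 2 libraries that stood apart these were -0.66 and -0.41.

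Gzmk, a granzyme of memory-type T cells and some NK cells, was at 52.3, 48.0 and 63.2 CPM in control, 34.0, 43.6 and 73.7 in TAA and 40.1, 30.0 and 58.0 in TAA+celecoxib. Gzma, the tryptase of the family, was at 5.36, 14.1 and 16.1 CPM in control, 11.2, 17.5 and 13.2 in TAA and 7.15, 7.08 and 11.5 in TAA+celecoxib. Both overlapped between all groups. Gzmb, which cleaves after aspartate and can activate caspases, had 2, 5 and 51 counts in control, 0, 6 and 37 in TAA and 2, 0 and 17 in TAA+celecoxib, so the library numbered 3 was the highest in each group. Its span overlaps those of other annotated genes, which held 14, 0 and 0 counts over the 9 libraries against 120 for Gzmb. Gzmb counts may be split with them.

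Gzmbl3 and Gzmbl2 are granzyme B-like genes. Gzmbl3 was at 0.37, 0.723 and 0.797 CPM in control, 1.63, 0.548 and 1.57 in TAA and 0.19, 0.491 and 0.282 in TAA+celecoxib. All TAA+celecoxib values were below all TAA values, with a log2 fold change of -1.95 ± 0.581 (edgeR adjusted p = 0.89). Below 3 counts (0.158 to 0.211 CPM of the library totals) a gene is not distinguished from absence. The TAA+celecoxib libraries, with 3, 7 and 5 counts, were near that level, and the TAA libraries had 23, 8 and 30. Mast cell and basophil markers summed to 41.2 to 52.2 CPM in control, 58.2 to 68.2 in TAA and 45.5 to 48.7 in TAA+celecoxib, and 7 of 9 in the table were tested. Their part in the Gzmbl3 result was not tested. Gzmbl2 had a log2 fold change of 0.27 in TAA against control, and Gzmc was not tested, with counts in only control 2 (9) and TAA 3 (3).

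Eomes and Tbx21 encode Eomesodermin and T-bet, which direct NK maturation and effector T cell programmes. Eomes was at 21.0, 12.3 and 17.7 CPM in control, 6.61, 12.7 and 11.2 in TAA and 14.2, 11.2 and 15.8 in TAA+celecoxib, and the groups overlapped through control 2 and TAA 2. Tbx21 was at 38.3, 27.7 and 39.4 CPM in control, 24.7, 29.3 and 23.6 in TAA and 28.6, 27.1 and 37.3 in TAA+celecoxib, overlapping in the same way. Their log2 fold changes of TAA against control were -0.74 ± 0.29 and -0.44 ± 0.186 (edgeR adjusted p = 0.788 for each), and -0.56 and -0.39 without the 2 libraries that stood apart. Ifng, the main cytokine of activated NK cells, was barely detected, with 14, 11 and 14 counts in control, 9, 5 and 1 in TAA and 9, 7 and 16 in TAA+celecoxib.

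**Figure D3:**
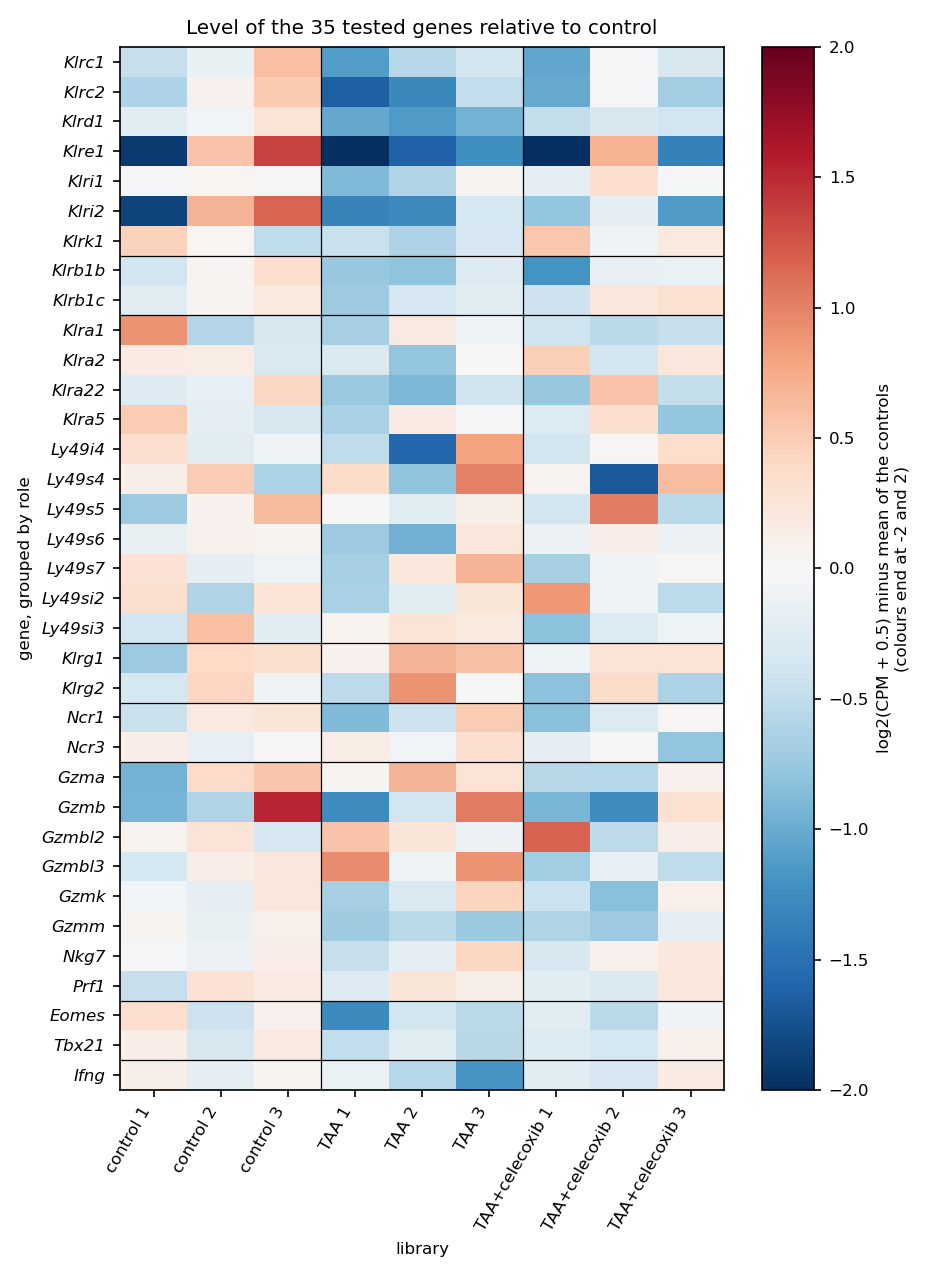
Log2(CPM + 0.5) of each of the 35 tested genes (rows, by role) in each library (columns) minus that gene's control mean, with colours limited to -2 and 2. The TAA columns are below the control mean for Klrd1 in all 3 libraries, and single libraries such as control 1 differ from their group in several rows.

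Perforin was also set against CD94 within each library. The ratio of Prf1 to Klrd1 CPM, chosen after the values were seen and so given with no test, was 2.93, 4.42 and 3.27 in control, 6.02, 9.21 and 7.36 in TAA and 4.15, 3.56 and 5.39 in TAA+celecoxib. The 3 TAA ratios were above the other 6. The same held for Prf1 to Cd3e, a T cell receptor subunit, at 1.38, 1.78 and 2.21 in TAA and at most 1.31 elsewhere. In TAA against control the log2 fold change was 0.01 for Prf1, -1.07 for Klrd1 and -0.77 for Cd3e. Both ratios thus largely restate their denominators. The ratio of Nkg7 to Klrd1 was 2.78, 3.64 and 4.84 in TAA and up to 2.83 in TAA+celecoxib, and that of Ncr1 to Klrd1 also overlapped between groups. The ratio of Klrd1 to Cd3e overlapped between groups, at 0.302 ± 0.0986 in control (SD, n = 3), 0.241 ± 0.0547 in TAA and 0.23 ± 0.0941 in TAA+celecoxib. So did the ratios of Klrk1 to Cd3e, to Klrd1 and to Cd8a. The ratio of Gzmm to Cd3e overlapped between TAA and control. No ratio was tested.

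No T cell marker was called by edgeR in any comparison. Of 16 tested, 15 had fitted values below 0 in TAA against control (median -0.72), 13 of them with an unadjusted edgeR p under 0.05 where the background was 3.15%. In TAA+celecoxib against TAA 15 were above 0 (median 0.63), 8 of them unadjusted, where the background was 2.63%. Their sums were 1325 to 1755 CPM in control, 906 to 1130 in TAA and 1052 to 1596 in TAA+celecoxib. Cd8a, a co-receptor of cytotoxic T cells, was at 79.5, 80.8 and 96.2 CPM in control, 45.0, 55.1 and 38.1 in TAA and 93.3, 91.7 and 91.3 in TAA+celecoxib. Macrophage markers summed to 3492 to 6735 CPM in control, 7421 to 10360 in TAA and 2861 to 6348 in TAA+celecoxib, and neutrophil markers to 111 to 430, 526 to 2520 and 351 to 897 CPM. Dendritic cell markers summed to 1289 to 1434 CPM in control, 1064 to 1156 in TAA and 888 to 1257 in TAA+celecoxib. Erythroid markers summed to 176 to 765, 490 to 3795 and 602 to 4585 CPM, with 9 of 9 tested fitted higher in TAA against control (median 2.65). None of these lists had a marker at 0 in every library, and the part of these cells in the NK gene results was not tested.

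**Figure D4:**
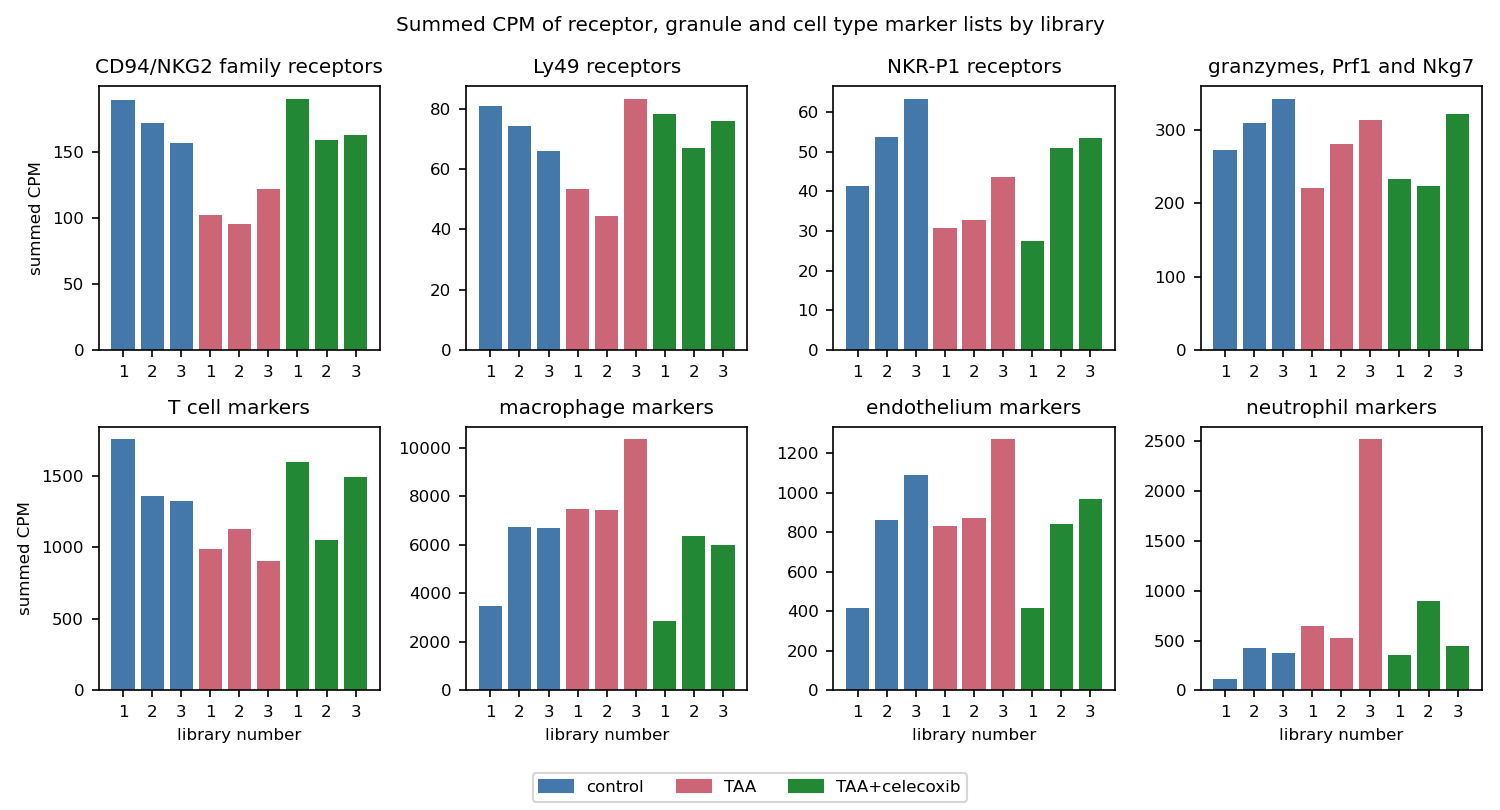
Summed CPM (y axis) for the receptor and granule genes and for marker lists, with a bar for each library. The x axis gives the library number, and colours give the group. The CD94 and NKG2 family sums of the TAA libraries (95.3 to 122 CPM) lie below those of the other 6 and the granule sums overlap. The T cell marker sums of TAA lie below those of control only.

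Genes around the receptors were counted from lists of the same biology, and no list had a gene called by edgeR in any comparison. At an unadjusted p under 0.05 the background over all genes was 3.15% lower and 2.85% higher in TAA against control, and 2.46% lower and 2.63% higher in TAA+celecoxib against TAA, so counts of 0 or 1 in lists of 11 to 15 genes are near it. Of 15 NK surface and secreted genes outside the family names, 2 were lower in TAA against control, the receptor Cd226 and the chemokine Xcl1, and 1 was higher, the integrin Itga2. Cd226 (DNAM-1), an activating receptor, was at 41.1, 45.0 and 43.0 CPM in control, 28.3, 30.1 and 32.5 in TAA and 37.9, 42.2 and 52.0 in TAA+celecoxib, and TAA overlapped with neither other group. Of 15 adaptors and signalling genes 3 were lower and 0 higher at that p, while 10 had fitted values above 0 (median 0.03). The 3, with Zap70 named after its values were seen, were Cd247 and Zap70, which are also counted among the T cell markers, and Sh2d1a (SAP), with a log2 fold change of -0.83 ± 0.251 (edgeR adjusted p = 0.788). Of 12 other granule genes 1 was lower, Ctsw (cathepsin W), at 62.7, 51.3 and 52.4 CPM in control, 31.7, 31.0 and 37.4 in TAA and 42.5, 45.7 and 61.7 in TAA+celecoxib.

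Of 15 genes of cytokine input 2 were lower (background 3.15%) and 0 higher (background 2.85%) in TAA against control at an unadjusted p under 0.05. Il18r1, a receptor chain for IL-18, had a log2 fold change of -0.65 ± 0.184, and Il2rb, the chain shared by IL-2 and IL-15 receptors, of -0.48 ± 0.171 (edgeR adjusted p = 0.788 for each). Of 11 other transcription factors 1 was lower, Gata3, and of 11 NK receptor ligands 1 was lower, Pvr, which is a ligand of Cd226. Both counts of 1 are near the background. In TAA+celecoxib against TAA the matching unadjusted counts were 0 lower in each list (background 2.46%) and 0 or 1 higher (background 2.63%), near the background. Among surface and secreted genes the 1 was Cd226, among adaptors Cd247 (also a T cell marker), among granule genes Ctsw and among transcription factors Gata3. Cytokine input and ligands had 0.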

How the data were processed

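RNA-seq of 9 rat spleen libraries was analysed. Read counts per gene were deposited by the authors as whole numbers, and the FPKM deposited beside them equal those counts divided by gene length and a library constant. HISAT2 2.0.5 and the mRatBN7.2 build appear in the submitters' processing notes, per the labels, with no role; the counter, gene annotation and strandedness were not given in the sources used here. edgeR 4.0.16 (R 4.3.3) fitted all 9 libraries with TMM scaling, filterByExpr (15954 genes) and quasi-likelihood tests, two-sided, with Benjamini-Hochberg adjustment over all genes. DESeq2 1.42.0 and limma-voom 3.58.1 were alternatives. The code was tested on simulated data. An exact permutation test of 3 against 3 cannot go below p = 0.1, so single genes rest on the fit. The members, lists and rules were chosen with earlier results of these data known. Genes given in every library were key receptors and effectors and the 5 members with the smallest p per comparison. Klrb1a is not analysed here. The list of effector chemokines is not reported here. Alternatives were other scalings, filters, fits and left-out libraries. Same-numbered libraries correlated (deviations from group means) at 0.475, 0.178 and 0.337 for control and TAA+celecoxib, all over 0.1, and for the other pairs of groups from -0.213 to 0.24. The labels give no reason for the numbers.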

Additional observations from a re-analysis of the deposited data

How the results depend on the processing

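Of the 18 alternatives, only DESeq2 called a member (1, Klrd1, in TAA against control). The number of genes called in TAA against control was 0 to 1 when 1 library was left out (1 without TAA+celecoxib 2) and 53 by DESeq2. In TAA+celecoxib against TAA it was 0 to 3 (3 without TAA 1) and 25 by DESeq2, and in TAA+celecoxib against control 0 to 2 (2 without TAA 1), 1 when only those 2 groups were fitted and 27 by DESeq2. Members' median log2 fold changes kept their sign throughout: TAA against control, -0.34, was -0.20 without TAA 1 and -0.54 without TAA 3; TAA+celecoxib against TAA, 0.18, was 0.0025 without TAA+celecoxib 2, 0.056 without TAA+celecoxib 3, 0.090 without TAA 1, 0.094 by limma-voom and 0.39 without TAA 3; and TAA+celecoxib against control, -0.30, was -0.19 without control 3. With the replicate block, where every same-numbered pair correlated over 0.1 only between control and TAA+celecoxib, the medians were -0.36, 0.14 and -0.33 and 0 members were called; it changed no call. The sign held under all alternatives for 21, 22 and 18 of the 35 members in the 3 comparisons, Klrd1 among them in each, from -1.18 to -0.928 in TAA against control and from 0.605 to 0.705 in TAA+celecoxib against TAA. Low counts limit Klrc1, Klre1, Klri2, Gzmb, Gzmbl3, Ifng and most Ly49 genes.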
